A study of Mus musculus with 10 samples.

Results

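Splenic CD4 T cells of the mouse were compared with mouse embryonic stem (ES) cells, each measured by RNA-seq in 2 samples. The samples were taken by their cell type label and make up 4 of the 10 samples of a series on Polycomb and Trithorax complexes. The other samples are splenic B cells and cultures of T helper 2 cells with or without trichostatin A. All the cells here were of the strain C57BL/6 and none of the 4 samples carried a mutation or a drug treatment by their labels. The CD4 T cells were isolated from spleens of 6-8 week old mice with magnetic beads and an AutoMACS sorter, to a stated purity above 98%. The ES cells were the single line B6N-22, grown with leukemia inhibitory factor (LIF) and serum on mouse embryonic fibroblasts that had been stopped from dividing with mitomycin C. Of 19025 genes in the files, 12907 reached 1 FPKM in at least 2 of the 10 samples and were counted. FPKM is the number of sequenced fragments per kilobase of transcript, scaled to the size of the library, so that levels of different genes can be set side by side per length.

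A CD4 T cell is a mature lymphocyte that circulates in a resting state and reads peptides on MHC class II molecules with its T cell receptor, helped by the co-receptor CD4. The receptor has no enzyme of its own: the kinases Lck and Zap70 phosphorylate the CD3 chains and the adaptor Lat, and calcium, protein kinase C and Ras carry the signal onward. An ES cell is held in a dividing, pluripotent state by LIF and by a circuit of transcription factors around Oct4, Sox2 and Nanog. Polycomb and Trithorax complexes modify histones and keep the genes of other lineages silent or their own genes active.

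The 4 samples were checked before any comparison. The labels fitted their markers: Cd3e stood at 242.9 and 246.0 FPKM in the CD4 T samples and at 0.47 and 0.64 in the ES samples, and Nanog at 0.03 and 0 against 144.5 and 146.4. All genes at 1 FPKM or more numbered 10553 and 10589 in the CD4 T samples and 11455 and 11456 in the ES samples. For short, low transcripts FPKM multiplied by length fell on even steps, which implied depths of 60.1 M and 58.1 M reads for the CD4 T samples and of 52.8 M and 53.1 M for the ES samples (M, mega). The samples of a group were nearly the same: log2 ratios within the pair had an SD of 0.064 for CD4 T and 0.0615 for ES cells, compared with 1.99 between the cell types and 0.276 within the T helper 2 pair. On the implied reads, chi-square per gene averaged 1.717 and 1.304, where sampling of reads alone gives about 1. Each pair was therefore counted as 1 sample, both values are given without an SD, and no p-value is given.

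A gene was taken as higher or lower by size alone: a log2 fold change of at least 2 on the scale of mean FPKM + 1, with at least 5 FPKM in the higher cell type. By this rule 1389 of the 12907 counted genes (10.8%) were higher on the CD4 T side, while 1531 (11.9%) were lower. These shares are the background for the list counts below. The higher genes supplied 28.8% of all FPKM in CD4 T cells, but 1.76% on the ES side. The lower genes supplied 2.59% and 22.7%. The other 9987 genes made up 68.5% and 75.3%, and 47.2% of counted genes differed by less than 1 log2 unit. The median log2 fold change of all counted genes was -0.16, and 0 after scaling the samples to a common median ratio. Where levels are joined by "against", CD4 T cells come first and ES cells second. In these bulk samples fewer cells of a kind and less RNA per cell cannot be told apart.

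**Figure D1:**
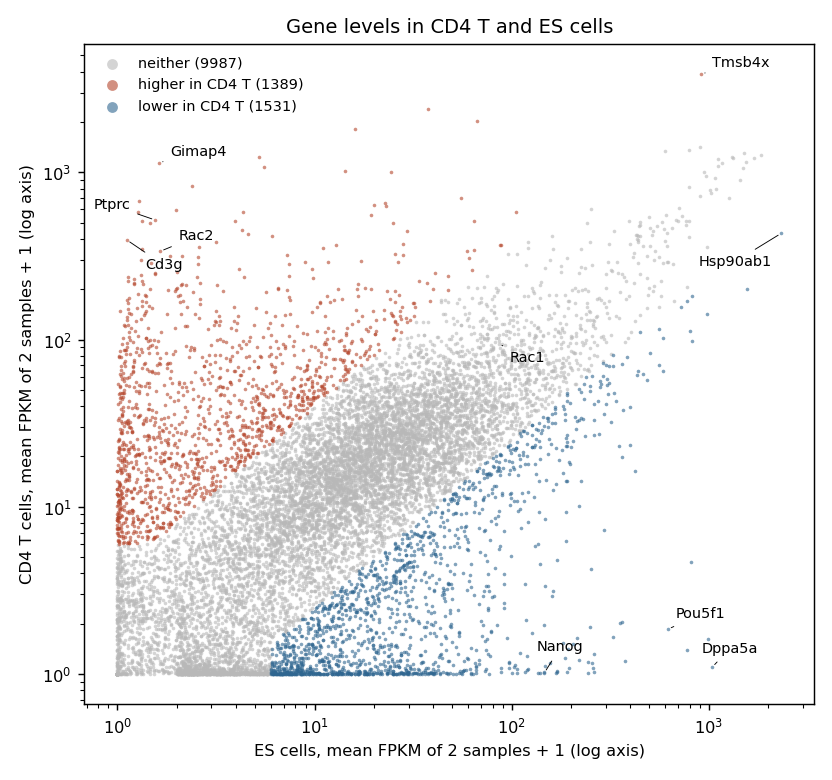
Mean FPKM + 1 of the 2 CD4 T samples (vertical, log axis) against that of the 2 ES samples (horizontal, log axis), 1 point per counted gene; red marks the 1389 higher and blue the 1531 lower genes. Gimap4, Ptprc and Cd3g lie along the left edge, and Pou5f1, Dppa5a and Nanog along the lower edge.

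The largest difference upward was in Gimap4, a GTPase of the immunity-associated family that acts in lymphocyte survival. It stood at 1142 and 1138 FPKM in the CD4 T samples and at 0.63 in both ES samples, a log2 fold change of 9.45. The family members Gimap3 (676.5 and 673.9 against 0.18 and 0.39), Gimap6 and Gimap8 were also among the 20 largest, and all 8 counted genes of the cluster on chromosome 6 passed the rule. Ptprc, the phosphatase CD45 that keeps Lck ready to act, stood at 520.7 and 514.5 FPKM against 0.54 and 0.57. These genes were picked for the size of their difference, so the lack of overlap between samples of the cell types follows from that choice.

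The largest difference downward was in Dppa5a, an RNA-binding protein of pluripotent and germ cells, at 0.10 FPKM in both CD4 T samples and at 1045 and 1036 in the ES samples (log2 fold change -9.89). Pou5f1, the gene of Oct4, stood at 0.79 and 0.92 against 620.3 and 619.9. Trh, the precursor of thyrotropin-releasing hormone, stood at 0.01 and 0.05 against 261.8 and 262.3, and Tdh, a threonine dehydrogenase that feeds glycine synthesis in mouse ES cells, at 0.03 and 0.04 against 188.7 and 191.6. Mt2 and Mt1, which encode metal-binding metallothioneins, were also among the 20 largest; 73.5% of the exons of Mt2 overlap another annotated gene.

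Genes of one level in both cells mark the other end of the scale. Among the 243 genes at 100 FPKM or more in both, the closest match was Uqcrh, a subunit of respiratory complex III, at 188.0 and 180.7 FPKM in CD4 T and 185.7 and 183.8 in ES cells. Eif3h, a translation initiation factor, stood at 166.2 and 166.8 against 164.5 and 164.1. The actin capping protein gene Capzb, the phosphatase gene Ppp4c and the ribosomal protein genes Rpl34, Rps14, Rpl13a and Rpl12 were also among the 10 closest. The samples of both cell types overlapped for Uqcrh but not for Eif3h, whose difference of 0.02 log2 units was small against the SD within pairs.

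**Figure D2:**
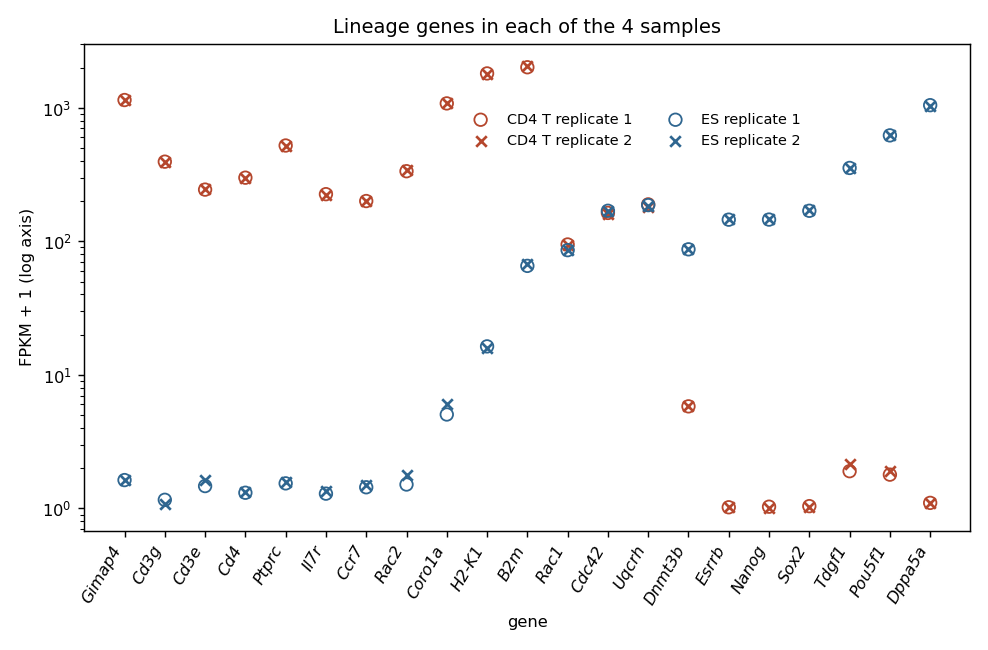
FPKM + 1 (log axis) of 21 genes in each of the 4 samples; circles are replicate 1 and crosses replicate 2, red for CD4 T and blue for ES cells. Circles and crosses of a colour nearly coincide, the colours are far apart for lineage genes, and Rac1, Cdc42 and Uqcrh lie at about the same level in all 4 samples.

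Of 34 genes of the T cell receptor complex and its first signalling steps, 33 were higher in CD4 T cells and none lower, with a median log2 fold change of 6.35 against -0.16 for all counted genes. The CD3 chains that transmit the signal stood close together: Cd3g at 393.9 and 392.9 FPKM, Cd3d at 234.0 and 240.4 and Cd3e at 242.9 and 246.0, each below 1 in both ES samples. Cd4 stood at 298.6 in both CD4 T samples and at 0.31 and 0.32 in ES cells. Lat, the membrane adaptor, reached 451.7 and 449.7 FPKM against 3.05 and 3.49, while Zap70, the kinase that phosphorylates it, stood at 120.2 and 119.7 against 1.25 in both ES samples. Lcp2, the adaptor SLP-76, averaged 122.0 against 0.12.

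A few members of this machinery had a level in the ES samples, which also held fibroblast markers summing to 2276 and 2278 FPKM; their part in these values was not tested. Lck stood at 351.2 and 348.4 FPKM in CD4 T and at 9.80 and 10.2 in ES cells, and Fyn, the related kinase, averaged 164.0 against 9.68. Thy1, a surface glycoprotein of T cells, averaged 305.1 against 59.8, and Plcg1, the phospholipase that starts the calcium signal, 100.5 against 23.9. The exception to the rule was the adaptor gene Sla2, at 33.2 against 18.4 FPKM. For Cd247, the zeta chain gene, the value in ES cells depended on the transcript: 3 of its 4 transcripts were at 18.3 to 24.7 FPKM and the fourth, NM_001113391, was at 0.32, while all were between 174 and 324 in CD4 T cells. Exons of Cd247 overlap those of Pou2f1, which was at 10.6 FPKM in ES cells, so the reading of Cd247 in ES cells is uncertain.

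In splenic B cells some genes of the T cell receptor list were low and others high. Cd3g averaged 4.18 FPKM in B cells, Cd5 3.73, Cd4 8.38, Lat 6.10 and Zap70 3.76, all far below CD4 T cells. Ptprc (375), Cd2 (180), Slamf6 (73.8), Vav1 (78.8) and Sla (95.9) were instead high in B cells as well. These values are set side by side, and no test of the difference between lymphocytes was made here.

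Downstream of the receptor, 25 of 36 second messenger genes were higher and none lower (median 3.34). Prkcq, the protein kinase C isoform of the T cell synapse, averaged 170.9 FPKM in CD4 T, 0.12 in ES and 4.0 in B cells. Rasgrp1, which activates Ras, averaged 116.6 against 0.43, a log2 fold change of 6.36. Dgka, a kinase that removes the Ras-activating lipid, was the most abundant of the list at 641.1 FPKM against 18.9. Among the calcium, NF-kB and kinase genes that did not pass were Orai1 at 19.6 against 8.53, Ppp3ca at 27.2 against 13.6, Rela at 51.3 against 14.6, Bcl10 at 27.9 against 21.1 and Akt1 at 54.1 against 49.2.

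Cytokine receptor and JAK-STAT genes followed, with 25 of 33 higher and 1 lower (median 3.21). Il7r, the interleukin 7 receptor of resting T cells, stood at 224.5 and 222.1 FPKM against 0.29 and 0.36, and at 3.64 in B cells. The shared gamma chain gene Il2rg averaged 356.3 against 1.59, and Il27ra, Il2rb and Il21r had log2 fold changes of 6.69, 6.66 and 6.38. Among the kinases, Jak1 (194.6 against 22.3) and Jak2 (57.1 against 3.84) were higher, as was Jak3 (63.4 against 13.8), while Tyk2 was at 37.4 against 10.2. The lower gene was Socs2, a feedback inhibitor, at 4.22 against 34.4. Stat3, which carries the LIF signal in ES cells, was at 60.04 against 28.7 FPKM, a log2 fold change of 1.04.

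Lymphocyte transcription factors were higher for 27 of 38 genes and lower for none (median 3.04). Ikzf1, which encodes Ikaros, stood at 180.7 and 179.5 FPKM against 0.37 and 0.43, and Ets1 at 414.9 and 414.3 against 4.96 and 5.14. Satb1, a chromatin organiser of thymocytes, stood at 119.6 and 119.7 against 1.22 and 1.20. Tcf7 was the most abundant, at 553.1 and 560.0 FPKM against 18.3 and 18.1, and Bcl11b, the T lineage commitment factor, averaged 51.3 against 0.44. In B cells Tcf7 was at 8.00 and Bcl11b at 0.29 FPKM, whereas Ikzf1 was at 132 and Ets1 at 262. Some factors known from resting lymphocytes differed by less than the rule asks: Klf2 was at 167.8 against 69.3, Id3 at 42.8 against 57.7 and Cbfb at 60.6 against 47.0.

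Genes that define effector and regulatory subsets were present at low to middle levels, and 15 of 18 counted genes were higher in CD4 T cells (median 3.45). The activation marker Cd69 averaged 68.9 FPKM against 0.05, the inhibitory receptor Ctla4 52.1 against 0.02 and the costimulator Icos 31.5 against 0.04. The lineage factors Foxp3 (30.7 against 2.48), Gata3 (20.1 against 1.48), Bcl6 (13.1 against 2.02) and Tbx21 (11.7 against 0.13) all passed. Cytokines were low in CD4 T cells, with Ifng at 9.70, Il4 at 5.02, Il2 at 2.60, Il21 at 0.71 and Il17a at 0.02 FPKM. Foxp3 shares 31% of its exon length with another annotated gene.

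Homing and adhesion genes were higher for 23 of 25 members (median 5.47). Ccr7, the receptor for lymph node chemokines, stood at 199.3 and 199.4 FPKM against 0.44 and 0.49. The integrin genes Itgb2, Itgal, Itgb7 and Itga4 averaged 252.2, 182.5, 290.7 and 82.3 FPKM against 1.01, 1.04, 8.00 and 0.60. S1pr1, the exit receptor for lymph nodes, was at 120.7 against 3.93. The exceptions were Cd44, at 34.7 against 34.8 FPKM, and Emb, at 106.5 against 60.9.

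The regulators of actin and of small GTPases in blood cells were higher for 25 of 29 members (median 4.78). Coro1a, an actin-binding protein, reached 1077 and 1082 FPKM against 4.05 and 5.07, and Rac2, the blood cell Rac GTPase, 334.0 and 338.6 against 0.51 and 0.79. Dock2, an exchange factor that activates Rac, averaged 165.9 against 0.39. Coro1a and Rac2 were abundant in B cells too, at 956 for Coro1a and 284 for Rac2. The 4 members not past the rule were the actin regulators Pfn1, at 1364 against 789.8, Cfl1, at 418.9 against 512.6, and Arpc1b, at 204.8 against 71.3, and the G protein subunit gene Gnai2, at 280.1 against 117.5. Tmsb4x, which binds actin monomers, was the most abundant gene of the CD4 T cells at 3896 and 3847 FPKM against 914.6 and 918.7 and passed it narrowly, with a log2 fold change of 2.08.

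MHC class I presentation was the list without an exception: all 14 measured genes were higher in CD4 T cells (median 5.39). H2-K1, a class I heavy chain, stood at 1807 and 1803 FPKM against 15.3 and 14.8, and B2m, its light chain, at 2010 and 2051 against 64.5 and 67.2. The peptide transporter genes Tap1 and Tap2 averaged 163.2 and 140.9 against 1.62 and 1.47. Psmb8, Psmb9 and Psmb10 encode the immunoproteasome subunits that take the place of Psmb5, Psmb6 and Psmb7. Psmb8 averaged 235.2 against 1.52 FPKM, and Psmb5 31.7 against 98.2, so that the order of the pair turned over. The same held for Psmb9 and Psmb6 (215.6 and 57.6 against 1.61 and 185.9) and for Psmb10 and Psmb7 (86.8 and 65.8 against 10.9 and 242.8).

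On the ES side, 31 of 33 pluripotency factor genes were lower in CD4 T cells and none higher (median -4.78), and 10 were listed at 0 in CD4 T cells. Sox2 stood at 0.04 and 0.02 FPKM against 168.3 and 169.8, Esrrb, a nuclear receptor of the same circuit, at 0.02 and 0.03 against 144.3 and 146.3, and Utf1 at 0.79 and 0.54 against 324.0 and 329.7. Sall4, Lin28a, Dppa4 and Nr0b1 followed, at 115.7, 105.4, 65.1 and 55.2 FPKM in ES cells and 0.04 or less in CD4 T cells. Otx2 and Fgf5, which mark the next developmental step, stood at 10.6 and 2.66 FPKM in ES cells. The genes that did not pass were Myc, at 34.7 against 24.5, and Zfp281, at 19.5 against 36.3. Klf4 averaged 2.22 against 45.8.

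Signalling genes of ES cells were lower for 17 of 30 members and higher for 2 (median -3.19). The largest difference was in Tdgf1, the Nodal co-receptor Cripto, at 0.90 and 1.14 FPKM against 353.3 and 352.0. The ligands Fgf4, Lefty2, Bmp4 and Nodal averaged 51.1, 29.0, 27.4 and 24.3 FPKM in ES cells and 0.12 or less in CD4 T cells. Feedback genes of the FGF pathway, Spry2 (0.58 against 72.4) and Spry4 (0.16 against 30.4), were lower, but Dusp6 was at 17.4 against 42.0. The 2 higher genes were Jak1 and Axin2, a Wnt target, at 16.6 against 2.75 FPKM. The LIF receptor chains were unequal: Lifr was at 2.22 against 7.32 and Il6st, the shared chain gp130, at 65.8 against 19.9.

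Epithelial junction genes were lower for 20 of 23 members (median -4.23). Cdh1, the E-cadherin gene, stood at 1.99 and 1.84 FPKM against 80.3 and 80.4, and Epcam averaged 1.89 against 78.9. Gja1, a gap junction protein, averaged 0.14 against 103.6 and Cldn4, a tight junction protein, 0.20 against 56.5. The integrin gene Itga6 was at 32.6 against 37.1.

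**Figure D3:**
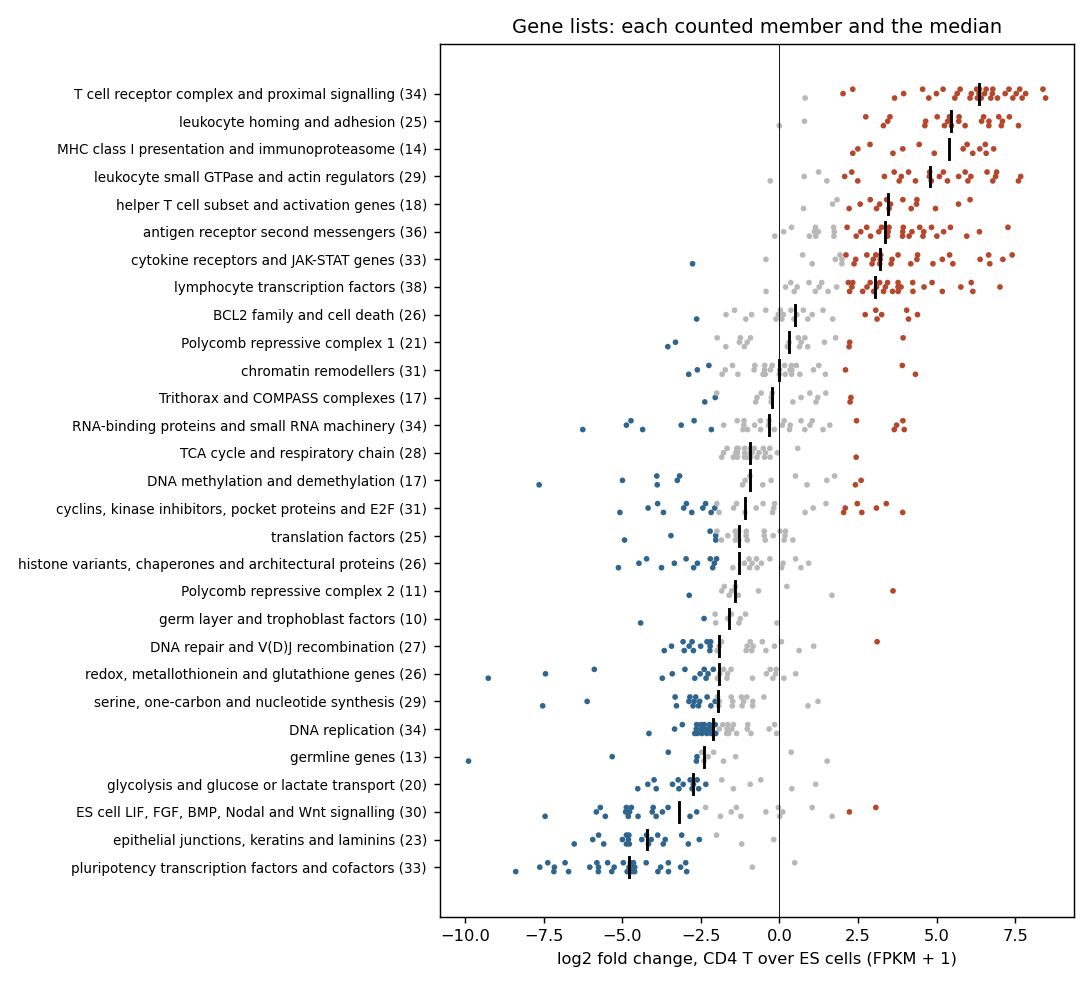
Log2 fold change of CD4 T over ES cells for each counted member of 29 gene lists (points; red higher, blue lower, grey neither by the size rule) with the list median (black bar) and the number of members in brackets. Medians run from -4.78 for pluripotency factors to 6.35 for the T cell receptor list, and chromatin remodellers are centred at 0.

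In the chromatin lists for remodellers, Polycomb complexes 1 and 2 and Trithorax, shares of higher and lower members were near those of all genes. These were 10.8% and 11.9% of counted genes, so the list counts single out no list. Of 31 counted remodeller genes 3 were higher and 3 lower, with a median of -0.003, and their FPKM summed to 1079 in each CD4 T sample and to 1141 and 1144 in the ES samples. Smarca2, an ATPase of the SWI/SNF complex, stood at 59.5 and 59.1 FPKM against 1.90 and 2.11, while the alternative ATPase Smarca4 stood at 41.8 and 42.0 against 51.0 and 51.8. The scaffold Smarcc2 averaged 47.8 against 10.4, and its relative Smarcc1 14.8 against 73.9. The NuRD helicase gene Chd3 averaged 144.8 against 8.71, and Chd4 97.2 against 139.9. Smarce1 (26.0 against 25.8) and Dpf2 (27.8 against 27.9) were among the members at the same level.

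The Polycomb list for complex 2, which methylates lysine 27 of histone H3, had 1 of 11 genes higher and 1 lower (median -1.40). Its FPKM summed to 518 and 519 in the CD4 T samples, compared with 982 and 984 in the ES samples. Eed was at 58.7 against 156.6 FPKM and Suz12 at 34.2 against 86.0, both short of the rule. Ezh1 and Ezh2 encode alternative catalytic subunits; Ezh1 averaged 28.0 and Ezh2 28.4 in CD4 T cells, against 8.12 and 83.1 in ES cells. Of the accessory genes Jarid2 was lower (17.0 against 130.5), Mtf2 averaged 23 against 79.9 and Aebp2 158.8 against 134.6. Phf1 was higher; 39% of its exon length overlaps another gene.

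Complex 1, which ubiquitinates histone H2A, had 3 of 21 genes higher and 2 lower (median 0.31). Bmi1 averaged 13.9 against 3.31 FPKM, and its relative Pcgf2 2.26 against 37.2. Among the Cbx proteins that bind methylated histone H3, Cbx7 was the most abundant in both cells, at 92.4 against 77.3. Cbx8 was higher in CD4 T cells (9.72 against 1.3). The E3 ligase genes Ring1 and Rnf2 stood at 18.0 and 22.6 in CD4 T cells, but at 6.06 and 50.03 in ES cells.

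In the Trithorax list 2 of 17 genes were higher and 2 lower (median -0.23). Kmt2c joined Kmt2a among the higher ones, at 39.5 FPKM against 7.52. Dpy30, a core subunit of the histone H3 lysine 4 methyltransferases, was lower (30.01 against 126.6), and Wdr5, another, was just short of the rule at 23.3 against 95.6. Rbbp5 (27.0 against 32.5), Kdm6a (23.7 against 17.4) and Setd1a (23.5 against 27.7) were at like levels, although 51% of the exons of Setd1a overlap another gene.

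DNA methylation genes were lower for 6 of 17 members and higher for 2. Dnmt3l, the cofactor of de novo methylation, stood at 0.26 and 0.37 FPKM against 261.9 and 261.5. Dnmt3b stood at 4.81 and 4.85 against 86.1 in both ES samples, while Dnmt3a stood at 19.7 and 20.2 against 14.0 and 13.5. The maintenance enzyme gene Dnmt1 was at 45.8 against 66.5, but its recruiter Uhrf1 was at 7.24 against 77.3. Mbd2, which binds methylated DNA, was higher at 106.7 against 19.2. Tet2, which oxidises methylcytosine, was at 10.9 against 25.8.

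Histone variants, chaperones and architectural proteins were lower for 12 of 26 members and higher for none (median -1.30). Hmga2 averaged 0.08 FPKM against 36.7 and Hmga1 13.2 against 190.0. The histone chaperone gene Nasp averaged 38.4 against 398.4, and the lamin genes Lmna and Lmnb1 2.34 and 32.8 against 61.3 and 223.0. Ctcf, which organises chromatin loops, was at 68.0 against 64.7, H3f3a at 115.3 against 106.3 and the macroH2A gene H2afy at 297.6 against 155.8.

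Genes of DNA replication and repair were lower in part. Of 34 replication genes 19 were lower and none higher (median -2.11). Mcm10, which loads at the replication fork, stood at 1.78 and 1.87 FPKM against 49.3 and 49.0, but Mcm6, at 39.7 against 125.7, and Pcna, at 69.7 against 131.4, fell short of the rule. Of 27 repair genes 12 were lower, and the exonuclease gene Exo1 averaged 0.67 against 20.2. The 1 higher repair gene was Dntt, the polymerase that adds bases to receptor gene joints, at 7.62 against 0; Rag1 was at 0.04 and, in ES cells, listed at 0.

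Cell cycle inhibitors divided by gene. Of 31 cyclin, inhibitor, pocket protein and E2F genes 7 were higher and 11 lower. Cdkn1b, which encodes p27, averaged 93.5 FPKM against 10.1, Rbl2, the pocket protein p130, 42.8 against 3.15 and the antiproliferative gene Btg1 89.0 against 4.94. Cdkn1a (1.08 against 69.0) and Cdkn2a (0.45 against 25.3) were lower, as was Ccne1 (8.36 against 136.02). The part of the fibroblasts on which the ES cells grew in these values was not tested. Ccnd3 was at 116.7 against 135.8 and Ccnd2 at 75.2 against 17.5.

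In the BCL2 and cell death list 7 of 26 genes were higher and 1 lower (median 0.51). Bcl2 stood at 26.0 and 25.9 FPKM against 0.59 and 0.67, and Bcl2l1, which encodes Bcl-xL, at 9.42 and 9.56 against 27.2 in both ES samples. Casp8, the initiator of death receptor signalling, averaged 88.1 against 3.24, and Fas 29.8 against 2.58. Birc5, which also acts in mitosis, was the lower gene at 14.7 against 96.4. Bcl2l11, Apaf1 and Bad were at like levels in both cells, at 19.7, 10.2 and 9.56 FPKM in CD4 T and 20.2, 9.93 and 9.02 in ES cells.

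Metabolic genes differed by pathway. Glucose uptake and glycolysis genes were lower for 14 of 20 members (median -2.76), and both glucose transporter genes differed alike, Slc2a1 at 18.6 and 19.3 FPKM against 361.3 and 361.2 and Slc2a3 at 22.4 and 21.9 against 349.4 and 347.6. The hexokinase genes differed in opposite directions: Hk1 stood at 34.6 in both CD4 T samples and 15.1 and 14.9 in ES cells, and Hk2 at 2.25 and 2.46 against 75.6 and 74.7. Serine, folate and nucleotide synthesis genes were lower for 14 of 29 (median -1.97), led by Tdh and by Gldc of the glycine cleavage system (0.07 against 73.2). Genes of the TCA cycle and respiratory chain had a median of -0.93, with 0 of 28 lower by the rule; Ucp2, an uncoupling protein, was higher at 146.9 against 26.2. Redox genes were lower for 12 of 26 (median -1.94), among them Prdx1 (69.03 against 561.2) and Txn1 (53.5 against 284.6), while Cat and Prdx5 were at 40.5 and 70.7 against 36.6 and 75.9.

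Translation factors were lower for 5 of 25 members and higher for none (median -1.29), beside 11.9% and 10.8% of all counted genes. Eif4ebp1, an inhibitor of cap-dependent initiation, averaged 5.22 FPKM against 187.9 and Eif2s2 17.2 against 197.4, while Eif4a2 was at 268.3 against 234.4. Ribosomal protein genes together made up 9.58% of FPKM in both CD4 T samples and 11.2% in the ES samples. RNA-binding protein genes were higher for 5 of 34 members and lower for 7, beside 10.8% and 11.9% of all counted genes. Zfp36 and Zfp36l2, which destabilise mRNAs, averaged 200.03 and 370.8 against 12.2 and 27.1, and the splicing regulator Mbnl1 181.4 against 10.6. Igf2bp1, a fetal mRNA-binding protein, was listed at 0 on the CD4 T side, and averaged 75.6 in ES cells.

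Pairs of related genes were compared for their rank. Of 45 pairs of paralogs or alternative subunits, both genes were measured in 44, and in 28 of them the gene with the higher FPKM in CD4 T cells was the one with the lower FPKM in ES cells. The pairs were listed with the presumed lymphoid gene first and with earlier results known. Therefore neither the direction or size of their ratio differences nor the number of pairs that turned over is a finding. As a description of these chosen pairs, the median difference of the log2 ratio was 4.38, and 35 pairs differed by at least 2. Rac2 and Rac1 averaged 336.3 and 93.4 FPKM in CD4 T cells, but 0.65 and 85.05 in ES cells, although 51.4% of the exons of Rac1 overlap Daglb. Tcf7 and Tcf7l1, DNA-binding partners of beta-catenin, averaged 556.6 and 1.29 against 18.2 and 29.2. Top2b and Top2a, the topoisomerases of resting and dividing cells, averaged 72.6 and 21.5 against 14.5 and 166.5. The ratio was lower in CD4 T cells for 2 pairs, Jak3 with Jak2 and Ldhb with Ldha.

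**Figure D4:**
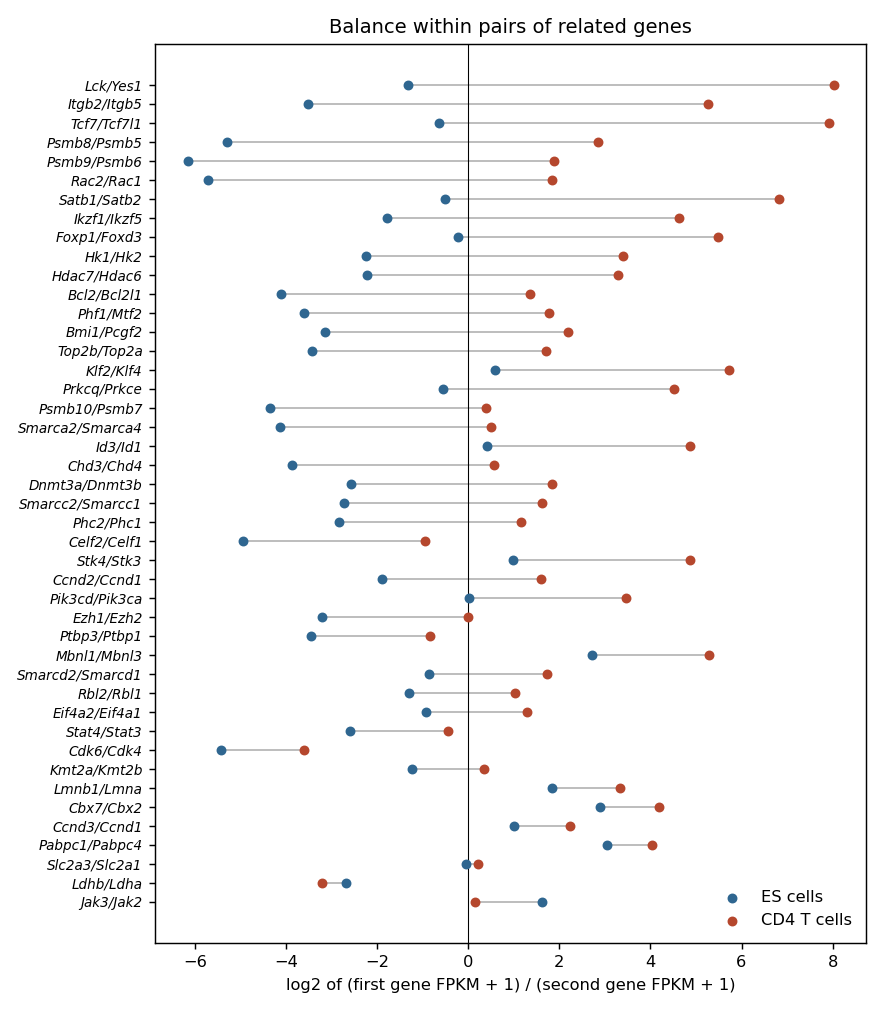
Log2 ratio of the first to the second gene of each of 44 pairs, on FPKM + 1, in ES cells (blue) and CD4 T cells (red). In 28 pairs the points lie on either side of 0, that is, the order of the genes turned over.

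Of 830 genes with several transcript values and at least 5 FPKM in all in both cells, 1 (0.120%) had a transcript whose share differed by 50 percentage points or more, and 93.1% differed by less than 5 points. That gene was Atxn7l1, a relative of a subunit of the SAGA complex: its transcript NM_001033436 averaged 34.4 against 2.02 FPKM, and NM_028139 averaged 7.26 against 5.81. The share of the first was 82.6% in CD4 T and 25.8% in ES cells. Itgae, the integrin chain CD103, followed with a shift of 27.7 points. The values of transcripts that share exons may not be separate isoform estimates, in which case their shares can hardly move, so the low count does not show that isoform use was alike.

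Markers of other cells were present on both sides. Among CD4 T cells, 12 of 15 B cell markers passed the rule upward; their FPKM summed to 454 and 462 in the CD4 T samples and to 21.2 and 22.3 in the ES samples. Ms4a1 averaged 40.4 FPKM in the CD4 T samples and 680 in the B cell samples. Myeloid markers were higher for 13 of 18, with sums of 651 and 656 against 77.2 and 77.8; the complement gene C1qa averaged 73.4 in the CD4 T samples and 21.8 in the B cell samples. CD8 T and NK cell markers were higher for 8 of 11, with Cd8b1 at 21.7 and Ccl5 at 83.8 FPKM. Beside these, the MHC class II genes H2-Aa (594.4 and 600.9 against 0.79 and 1.18) and Cd74 (1243 and 1230 against 3.92 and 4.59) were among the 20 largest differences upward, and stood at 2402 and 6682 in B cells. The part of such cells in the values of class II, or of any other gene, was not tested.

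In the ES samples fibroblast markers stood beside those of pluripotency. Of 23 markers 21 were lower in CD4 T cells (median -5.33), with sums of 115 and 119 FPKM against 2276 and 2278, and of the CD4 T sums S100a4 alone made up 107.6. Col1a1 averaged 0.12 against 147.0 and Sparc 0.66 against 213.2. Among the 20 largest differences downward were the matrix and secreted protein genes Spp1 (0.35 and 0.44 against 772.3 and 773.2), Bgn, Tnc and Fn1, which fibroblasts are known to express. The part of feeder cells in these values, or in those of any other gene of the ES samples, was not tested. Transcripts of the Y chromosome also differed: Eif2s3y was listed at 0 in both CD4 T samples and at 24.8 in both ES samples, and Uty at 0 against 6.93 and 6.32. All 3 counted genes of the Y chromosome were lower in CD4 T cells. The labels give no sex for the mice or the line. A part of sex in the differences was not tested and cannot be told apart from that of cell type.

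Of 10 counted germ layer and trophoblast factors 2 were lower by the rule, Nes (listed at 0 against 20.4) and Krt7 (0.31 against 5.90). Among all counted genes 11.9% were lower. Gata4 was at 3.16 and T, the Brachyury gene, at 3.08 in ES cells. Eomes was at 3.54 against 3.79. Germline genes were lower for 5 of 13, with Dppa5a, given above, far the most abundant and Ddx4 at 0.13 against 12.1.

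Neighbouring genes formed 9 runs of at least 5 counted genes in a row that passed the rule in 1 direction, 7 of them upward. How many runs a random order of genes would give was not tested. The longest upward run held 12 genes of the MHC region on chromosome 17 between positions 34119693 and 34341410 of GRCm38 (mm10). It ran from H2-DMa to H2-Eb2, with Psmb9, Tap1, Psmb8 and Tap2 among them and a median of 5.91. The part of B and myeloid cells in the values of its class II genes was not tested. The Gimap cluster on chromosome 6 held 8 genes between 48647186 and 48770851, with a median of 7.29. A run of 7 genes on chromosome 1, between 171558718 and 171948958, held the Slam receptors from Cd244 to Slamf6. Downward, 6 genes on the X chromosome from Bex2 to Ngfrap1 had a median of -4.51. The longest downward run held 22 gamma protocadherin genes beside Taf7; these genes share exons, so their values are not separate measurements.

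The promoters of the genes furthest apart differed in their content of CpG, the dinucleotide at which DNA is methylated. RefSeq promoters of GRCm38.p6, from 250 bases before to 50 after a start site, were matched by symbol to 10275 of the counted genes, using the first start listed for each. Those of a few genes, picked by hand, are shown as examples: the 250 bases before the start, 5′ to 3′, with each CG in capitals. Such examples do not show how the classes differ, and the counts for the classes are given below. The first set is of genes higher in CD4 T cells (Gimap4, chr6:48684328-48684577, plus strand; Cd3e, chr9:45009612-45009861, minus strand; Lck, chr4:129573642-129573891, minus strand).
Gimap4: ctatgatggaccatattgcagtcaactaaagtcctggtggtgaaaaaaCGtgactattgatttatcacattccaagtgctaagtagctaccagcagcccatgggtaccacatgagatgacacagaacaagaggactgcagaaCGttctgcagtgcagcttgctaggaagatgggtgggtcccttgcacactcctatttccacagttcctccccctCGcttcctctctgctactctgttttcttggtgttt
Cd3e: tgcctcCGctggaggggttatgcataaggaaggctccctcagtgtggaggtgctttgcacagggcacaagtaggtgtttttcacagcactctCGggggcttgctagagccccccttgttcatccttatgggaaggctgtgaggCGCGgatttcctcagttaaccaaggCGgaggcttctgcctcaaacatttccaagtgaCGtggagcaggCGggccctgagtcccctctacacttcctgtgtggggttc
Lck: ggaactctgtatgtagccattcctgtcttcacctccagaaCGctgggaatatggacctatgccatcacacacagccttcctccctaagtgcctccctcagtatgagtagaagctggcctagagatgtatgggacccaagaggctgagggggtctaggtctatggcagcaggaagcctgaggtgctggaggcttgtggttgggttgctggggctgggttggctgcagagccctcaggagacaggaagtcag
They hold 3, 7 and 1 CG in 250 bases, and 4, 8 and 7 once the 50 bases after the start are added. The second set is of genes lower in CD4 T cells (Pou5f1, chr17:35505782-35506031, plus strand; Sox2, chr3:34649745-34649994, plus strand).
Pou5f1: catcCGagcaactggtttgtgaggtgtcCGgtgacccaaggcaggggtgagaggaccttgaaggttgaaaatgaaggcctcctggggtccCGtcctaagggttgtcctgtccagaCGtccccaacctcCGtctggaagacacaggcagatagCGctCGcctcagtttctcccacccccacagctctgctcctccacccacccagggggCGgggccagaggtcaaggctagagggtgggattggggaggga
Sox2: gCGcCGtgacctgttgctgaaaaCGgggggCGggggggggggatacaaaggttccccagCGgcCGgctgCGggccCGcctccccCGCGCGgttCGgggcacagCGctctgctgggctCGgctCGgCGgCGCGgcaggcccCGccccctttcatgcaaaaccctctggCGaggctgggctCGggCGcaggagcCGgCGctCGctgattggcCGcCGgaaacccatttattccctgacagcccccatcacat
They hold 8 and 27 CG, and 11 and 27 with the bases after the start. Sox2 lies above the upper quartile of genes with a log2 fold change under -6, which was 17.75. Cdc42, a small GTPase at 162.2 and 160.0 FPKM in CD4 T and 168.3 and 167.8 in ES cells, stands for a gene of like level (chr4:137357760-137358009, minus strand).
Cdc42: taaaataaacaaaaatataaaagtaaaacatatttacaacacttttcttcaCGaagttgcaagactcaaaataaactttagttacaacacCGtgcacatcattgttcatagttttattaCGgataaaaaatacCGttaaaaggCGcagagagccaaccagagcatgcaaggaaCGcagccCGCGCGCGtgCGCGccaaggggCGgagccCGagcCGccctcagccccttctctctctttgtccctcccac
It holds 15 CG, and 22 with the bases after the start.

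Across genes the median CpG count was taken in the window of 250 bases before to 50 after the start. It was 11 for the 1059 matched genes higher in CD4 T cells, 20 for the 1160 lower genes and 21 for the 8056 others. All counted genes with a promoter had a median of 20, and all 27025 RefSeq promoters had a median of 7. Among counted genes the median fell with the size of the difference, most of all upward: 15 at log2 fold changes of 2 to 4, 6 at 4 to 6 and 5 at 6 or more. Downward it was 20, 17 and 10 over the same sizes. Promoters with under 10 CpG made up 75.3% of genes at 6 or more, 45.2% of genes under -6 and 12.7% of genes between -1 and 0. The order held among genes of like level: at 100 FPKM or more in the higher cell type, the median was 11 for higher, 21 for lower and 23 for other genes.

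**Figure D5:**
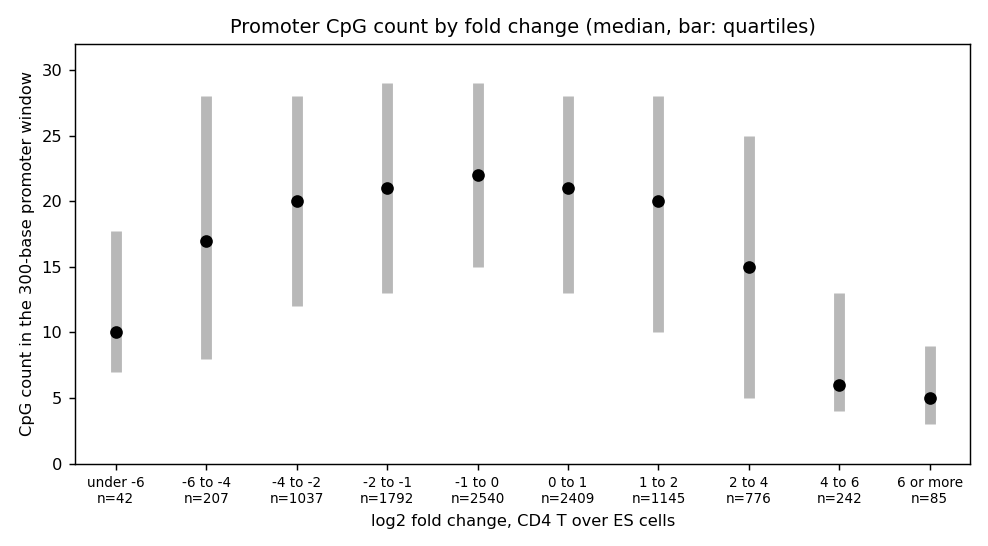
CpG count in the promoter window by log2 fold change of CD4 T over ES cells, with the median (point), the quartiles (bar) and the number of genes. Medians are 20 to 22 for log2 fold changes between -4 and 2 and drop to 10 at the lower and 5 at the upper end.

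The lists differed in the same measure. Only members with a matched promoter entered. The median was 5 CpG for 22 genes of the T cell receptor list, 4 for 17 of homing and adhesion and 6 for 13 helper subset genes. It was 20 for 31 lymphocyte transcription factors and 22.5 for 28 second messengers, lists that were also higher in CD4 T cells. The 24 matched pluripotency factors had a median of 14 and the 25 matched chromatin remodellers 31. Of 7 short motifs sought on both strands, CCGGAAG, an ETS family motif, was in 8.69% of the promoters of higher genes, 10.0% of those of lower genes and 19.7% of the others. It was in 17.5% of the promoters of all counted genes and in 9.12% of all 27025 promoters in the table. GGGCGG, an Sp1 motif, was in 52.5%, 68.4% and 64.1% (35.9% of the table), and TGTGGTT, a Runx motif, in 6.70%, 3.79% and 3.44% (5.37% of the table). In the same order TATAAA was in 10.7%, 8.45% and 7.12% (14.2%), CCAAT in 34.5%, 39.5% and 39.4% (37.9%), the octamer ATGCAAAT in 2.27%, 1.72% and 1.35% (1.75%) and TGACGTCA in 1.51%, 2.76% and 3.43% (1.88%). The ETS and Sp1 motifs and the last of these hold a CG themselves, so their shares depend on the CpG count. Promoters of higher genes also had a lower median content of guanine and cytosine. It was 57.7%, compared with 60.7% for lower genes and 60.7% for the others. The part of this base content in the shares of the motifs without a CG, the Runx motif among them, was not tested. A match is a run of letters and not a bound site.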

How the data were processed

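Bulk RNA-seq of 2 CD4 T and 2 ES samples was analysed, with the 2 B cell samples beside them. Groups and replicate numbers came from the sample titles. Libraries were made from total RNA with the TruSeq kit, per the labels' protocols. The deposited files hold FPKM, 1 value per RefSeq transcript, which the authors had already divided by length and library size. Bowtie 0.12.8, TopHat 1.3.2 and Cufflinks 2.0.2 are listed in the submitters' processing notes, with the build mm10. The sources used here do not give their settings or the use of strand.

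Each file had 21035 rows. The 315 rows without a symbol and the 30 with a date in its place were named by accession from RefSeq (GRCm38.p6), which held 20486 of the accessions. Each gene took the highest of its transcript rows. Group means were compared as log2(FPKM + 1), a scale that shrinks differences between low values; the size rule and the filter are given above. Reads were estimated from the steps of FPKM times length in GENCODE M21 transcripts of 200 to 1000 bases, where 66.5% to 77.8% of values per sample lay within 0.2 of a whole read. They served only to compare the samples of a pair. Because each pair counts as 1 sample, no replicate test was made, and the labels do not say whether replicates were separate animals or cultures.

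The comparison, the gene lists and the pairs were chosen with earlier results of these data known. Named genes are the 20 largest differences in each direction, up to 8 members per list by size, the pairs, the 10 largest transcript shifts and the 10 closest genes; antigen receptor segments, numbered models, Riken clones, pseudogenes and small RNAs were left out of the first group. Further members were named as examples after their values were seen, and some that met the rule are not reported here. Exon overlap came from GENCODE M21. The code was tested on simulated data and run with Python 3.11.15, numpy 2.4.6 and pandas 2.3.3.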

Additional observations from a re-analysis of the deposited data

How the results depend on the processing

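The size rule set the counts. With a pseudocount of 5, 816 genes were higher and 721 lower; with a log2 fold change of at least 1, 2488 and 3012; with at least 20 FPKM, 949 and 843. The other settings kept both counts within 1.5 times: a pseudocount of 0.1, sums or means of rows, either other filter, and quantile or median-ratio scaling, which gave 1518 higher and 1366 lower genes. Leaving out a replicate gave 1385 to 1391 higher and 1534 to 1537 lower genes. The gene Atxn7l1 was below the limit when 20 FPKM was asked for in both cells, which left 0 of 511 genes with a transcript shift.

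Median-ratio scaling moved the median of all counted genes from -0.16 to 0. Of 35 list medians only that of chromatin remodellers, at -0.003, took the other sign under it, and none did under the 9 other settings tried. No named gene past the size rule changed sign. The size of a fold depends on the pseudocount, above all where a group is near 0: against the values given, list medians moved by up to 3.14 log2 units with a pseudocount of 0.1 and 2.05 with 5, and named genes by up to 3.29 and 2.28. No paired analysis was possible because the 2 samples of each group count as 1 sample. With 1 sample on each side no difference has a replicate check, and FPKM files without counts give no counting interval.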
